A study of Apis mellifera with 48 samples.

Results

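The 56 genes described here had higher median levels in active than in inactive honey bees (Apis mellifera) of both sexes, in RNA of the mushroom bodies. They were chosen by measured values. A gene's level in a bee was its count per 1000000 gene counts of that bee (CPM), and a group's level was the median of its 12 bees. A gene was taken where the ratio of the median of active bees to the median of inactive bees was at least 1.3 in drones and at least 1.3 in workers, and all 4 group medians were at least 3 CPM. The rule found 56 of the 15314 gene identifiers, and 8467 identifiers met the floor of 3 CPM. Counts were not scaled by gene length, so a level is compared between bees for 1 gene and not between genes. All 56 passed the filter on low counts of the tests.

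The 48 bees formed 4 groups of 12, with 1 library of polyadenylated RNA per bee. Active drones and active workers were taken at 3 pm, and inactive drones and inactive workers at 9 am, so activity and clock time cannot be told apart. The labels give no treatment, age or strain. The bees came from 3 colonies with unrelated, naturally mated queens. Of the active drones 2, 2 and 8 were from colonies 1, 2 and 3, and of the inactive drones 5, 1 and 6. The active workers and the inactive workers each numbered 5, 5 and 2 from colonies 1, 2 and 3. Each group was spread over the sequencing pools, and 1 active worker was the only library of pool 7. Gene reads per bee ran over 9.03 M to 15.3 M in active drones, 6.69 M to 22.4 M in inactive drones, 6.85 M to 27.1 M in active workers and 7.95 M to 25.6 M in inactive workers.

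The mushroom bodies are paired centres of the insect brain, built mainly of Kenyon cells, known for their part in learning, in memory and in joining sensory inputs. Drones are haploid males that leave the hive on afternoon mating flights, and workers are diploid females that forage. Neurons that fire strongly switch on early response genes within minutes, and transcripts of clock genes rise and fall over the day. None of the 15314 identifiers matched the gene name table at hand, so the 56 genes are given by identifier, without roles, positions or sequences. For the same reason the dissected tissue was not checked against markers of neurons, glia or other tissues. In bulk RNA, more cells of a type and more RNA per cell cannot be told apart.

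With colonies pooled, the median ratio of active to inactive bees was larger, and the ratios more spread, in drones than in workers. Over the 56 genes the drone ratio ran over 1.31 to 9.72 with a median of 1.56, and the worker ratio over 1.3001 to 1.79 with a median of 1.45. The medians over all 8467 genes were 0.979 in drones and 0.972 in workers. The ratio reached 2 for 14 of the 56 genes in drones and for 0 in workers, and it reached 4 for 4 genes in drones. For 37 genes the drone ratio was the larger and for 19 the worker ratio. The median log2 of drone ratio over worker ratio was 0.0945. In colony 1 the order was reversed, with a median ratio of 1.39 in drones and 1.60 in workers. The medians were 1.33 and 1.28 in colony 2, and 1.77 and 1.27 in colony 3. In neither sex did any of the 56 have a mean that was lower in active bees, and 39 also met the rule with means in place of medians. The group medians ran over 6.47 to 3402 CPM in active drones, 3.87 to 925 CPM in inactive drones, 4.36 to 1323 CPM in active workers and 3.05 to 1016 CPM in inactive workers. These values chose the genes and are given as a description, with no test.

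**Figure D1:**
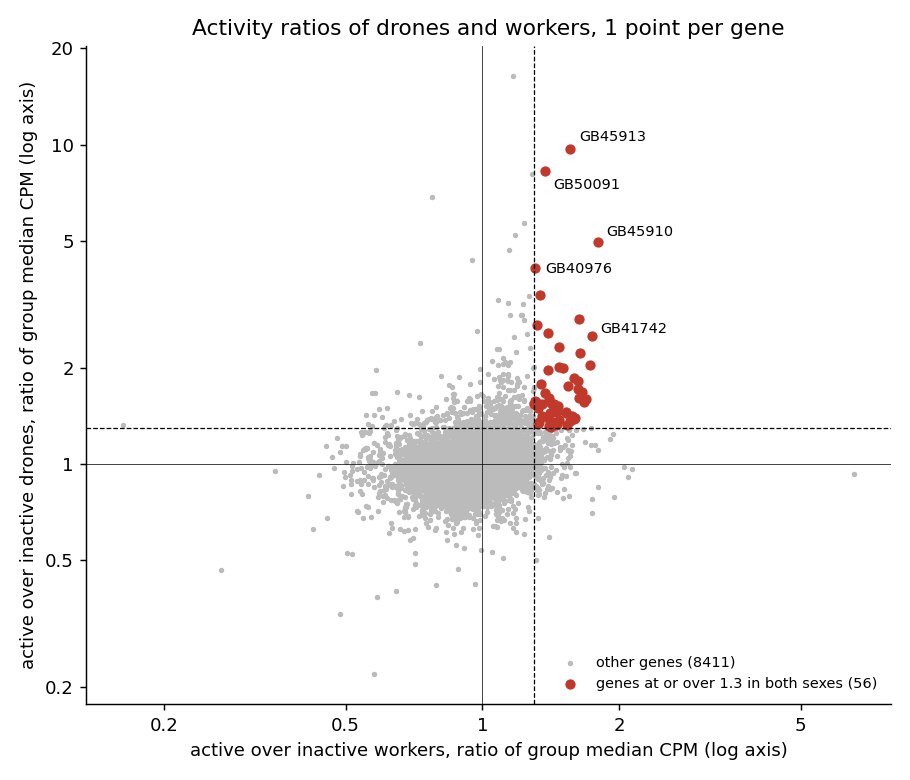
Ratio of the group median CPM of active over inactive bees for 8467 genes, workers on the x axis and drones on the y axis, both log axes. Each point is a gene, the dashed lines mark 1.3, and the 56 red genes spread upwards to 9.72 in drones but end at 1.79 in workers.

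Genes past 1.3 in 1 sex were more numerous. A ratio of at least 1.3 was found in drones for 415 of the 8467 genes (4.9%) and in workers for 221 (2.61%). The 56 shared genes, 0.661% of the 8467, were 13.5% of the drone list and 25.3% of the worker list. A further 359 genes passed in drones alone and 165 in workers alone, while 32 genes were up by that fold in active drones and down in active workers and 4 were up in active workers and down in active drones.

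The steepest drone ratio belonged to GB45913, at 9.72. It had 164, 1669 and 6597 CPM in active drones (lowest, median and highest of the 12), against 103, 172 and 330.3 CPM in inactive drones. In active workers it had 65.6, 156 and 738 CPM, against 59.8, 99.98 and 727 CPM in inactive workers, a ratio of 1.56. Of the active drones 9 were above every inactive drone and 3 were inside the range of the inactive drones, whereas the ranges of active and inactive workers overlapped almost fully. In colonies 1, 2 and 3 the drone ratio was 4.25, 0.919 and 13.7, with 8 active and 6 inactive drones in colony 3.

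GB50091 followed with a drone ratio of 8.24 and a worker ratio of 1.37. Its levels were 171, 673 and 1261 CPM in active drones and 48.6, 81.7 and 213 CPM in inactive drones. In active workers they were 145, 234 and 977 CPM, against 67.8, 171 and 236 CPM in inactive workers. In drones 11 of 12 active bees were above every inactive bee, and in workers 6 of 12.

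GB40976 had the highest mean CPM over the 48 bees, which is not scaled by length, and stood only just past the threshold in workers. It had 777, 3402 and 10215 CPM in active drones and 565, 826 and 1404 CPM in inactive drones. In active workers it had 726, 1323 and 3048 CPM, against 426, 1016 and 2548 CPM in inactive workers. The drone ratio was 4.12 and the worker ratio 1.3026, and 2 of the 12 active workers were above every inactive worker.

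GB45910 had the largest worker ratio of the 56 genes, 1.79, beside a drone ratio of 4.96. In colonies 1, 2 and 3 its ratios were 3.17, 0.676 and 10.4 in drones and 2.94, 0.795 and 1.27 in workers, so that colony 2 had lower medians in active bees of both sexes. Its levels were 39.9, 267 and 1731 CPM in active drones and 13.0, 53.9 and 130.4 CPM in inactive drones. In active workers they were 35.3, 52.5 and 276 CPM, against 13.4, 29.3 and 238 CPM in inactive workers. The worker groups overlapped, with 1 active worker above every inactive one.

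GB41742 separated the groups more evenly. It had 25.3, 70.0 and 109 CPM in active drones and 6.37, 27.9 and 39.8 CPM in inactive drones, and 11 of 12 active drones were above every inactive one. In active workers it had 12.8, 30.6 and 47.5 CPM, against 5.66, 17.6 and 30.6 CPM in inactive workers, with 6 active workers above every inactive one. Its ratios were 2.51 in drones and 1.74 in workers.

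GB48344, GB51303, GB47551, GB52713 and GB50297 had drone ratios of 2.22, 2.85, 1.69, 1.82 and 1.72 beside worker ratios of 1.64, 1.63, 1.66, 1.62 and 1.62. Between 7 and 10 active drones were above every inactive drone for each of them. The count in workers ran over 0 to 9. It was 0 for GB50297, whose active workers had 15.7, 19.8 and 24.9 CPM and whose inactive workers had 7.99, 12.2 and 26.0 CPM, so that the highest inactive worker was above all active ones.

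GB41310 met the rule with ratios of 2.05 in drones and 1.72 in workers, yet its drones were split within each time. It had 4.81, 46.4 and 151 CPM in active drones and 3.34, 22.7 and 121 CPM in inactive drones. In 4 active and 4 inactive drones the level was under 10 CPM, while 4 active and 2 inactive drones were over 100 CPM. No worker was under 10 CPM, with 28.6, 82.4 and 143 CPM in active workers and 30.1, 47.8 and 92.9 CPM in inactive workers. Of all 56 genes it had the largest SD between bees among active drones, 1.92 on the TMM-scaled log2 scale, and among inactive drones, 1.88. Its edgeR adjusted p for active against inactive bees was 0.843 in drones and 0.676 in workers. In colonies 1, 2 and 3 its ratio was 2.67, 1.66 and 0.482 in drones and 1.63, 1.06 and 3.17 in workers. The drones of colony 3, 8 active and 6 inactive, thus ran the other way, with medians of 32.5 CPM in active and 67.5 CPM in inactive bees.

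GB50901, GB47941 and GB51044 leaned most towards workers. Their worker ratios were 1.53, 1.60 and 1.59, beside drone ratios of 1.32, 1.40 and 1.39. GB51044 had 203, 238 and 334 CPM in active drones and 97.6, 172 and 290.0 CPM in inactive drones. Active workers had 118, 147 and 193 CPM, against 42.4, 92.4 and 156 CPM in inactive workers. The groups overlapped in both sexes, with 1 active drone and 1 active worker above every inactive bee of their sex.

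Across the 56 genes active and inactive bees mostly overlapped gene by gene. At least 6 of the 12 active drones were above every inactive drone for 35 genes, which held for 3.53% of the 8467 genes. The same held in workers for 17 genes, against 3.07% of the 8467. All 12 active drones were above all 12 inactive drones for 1 of the 56 genes (0.0354% of the 8467), and all 12 active workers above all inactive workers for 0 (0.0472%). The 1 gene, GB40703, which is named here after its values were seen, had 205, 269 and 516 CPM in active drones and 79.8, 134 and 176 CPM in inactive drones. These counts use the contrast that chose the genes.

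A count model of the same contrast called fewer of the 56 genes in workers than in drones. With edgeR's quasi-likelihood test and colony as a covariate, 39 of the 56 had an adjusted p under 0.05 and were higher in active drones (2.64% of the 11167 genes tested), and 16 were higher in active workers (1.65%). All 16 were also called in drones, and 17 genes were called in neither sex. Over all genes tested, 38 (0.34%) were called higher in both sexes, of which 16 were among the 56. The worker count was 5 without inactive worker 3 (0.553% of all genes tested) and 5 without active worker 4 (0.526%), and with no bees of colony 1 it was 0 (0.0889%). With no bees of colony 3 the drone count was 0 (0.00879%). In each of these fits the share of all genes called was also lower than with all bees. The rule used this contrast, so nothing is read from these counts.

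The difference between the sexes in response is built from the contrasts that chose the genes and is given as a description. In the edgeR fit it was called for 1 of the 56 genes (0.26% of all genes tested). It was called for 0 with the replicate block (12 of all 11167 genes tested) and 0 without colony 3 (0 of 11372). The gene, GB45912, which is named after its values were seen, had a worker response minus drone response of -1.32 ± 0.29 (log2, SE). Its levels were 323, 1205 and 3030 CPM in active drones and 277, 357 and 464 CPM in inactive drones. Active workers had 351, 451 and 795 CPM, against 239, 337 and 699 CPM in inactive workers. In drones 10 active bees were above every inactive one and in workers 1.

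The level of the 56 genes in a single bee was taken as the median over the genes of log2 CPM relative to the median of inactive bees of its sex. The 12 active drones stood at 0.36 to 1.19, with a median of 0.67, and the 12 inactive drones at -0.12 to 0.10. The 12 active workers stood at 0.38 to 0.88, with a median of 0.54, and the 12 inactive workers at -0.45 to 0.24. Each of the 12 active bees of a sex was above each of the 12 inactive bees of that sex, which the choice of genes favours. The same median over all 8467 genes lay between -0.19 and 0.13 in every bee.

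**Figure D2:**
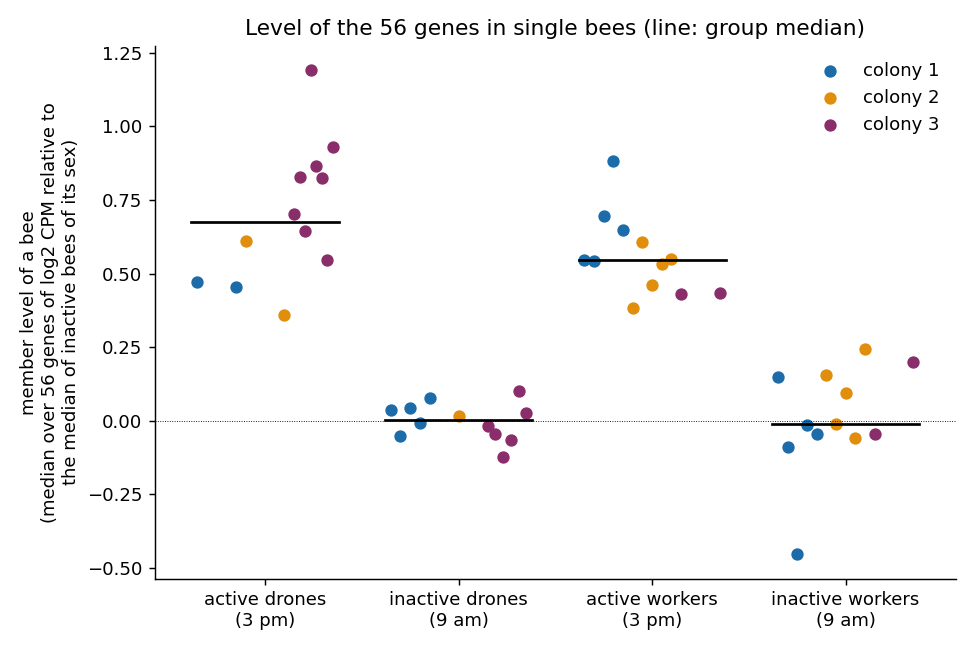
Level of the 56 genes in each bee, as the median over genes of log2 CPM relative to inactive bees of its sex, by group and coloured by colony, with a line at the group median. Active drones reach 1.19 and active workers 0.88, and the inactive worker at -0.45 lies apart at the low end.

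Single bees carried the pattern unequally. Between 45 and 54 of the 56 genes in an active drone were above the median of inactive drones, and between 20 and 34 in an inactive drone. In active workers the count ran over 43 to 56, with all 56 in active worker 3, and in inactive workers over 6 to 44. The lowest count, 6, and the lowest level, -0.45, belonged to inactive worker 3, from colony 1. Within each of the 6 sequencing pools that held both times, active bees exceeded inactive bees by 0.48 to 0.96 in drones and by 0.34 to 0.79 in workers. Each of these pools held 2 bees per sex and time, save 1 active worker in pool 6. Every active bee was above every inactive bee of its sex, so the direction within a pool was fixed beforehand and shows nothing about pools.

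**Figure D3:**
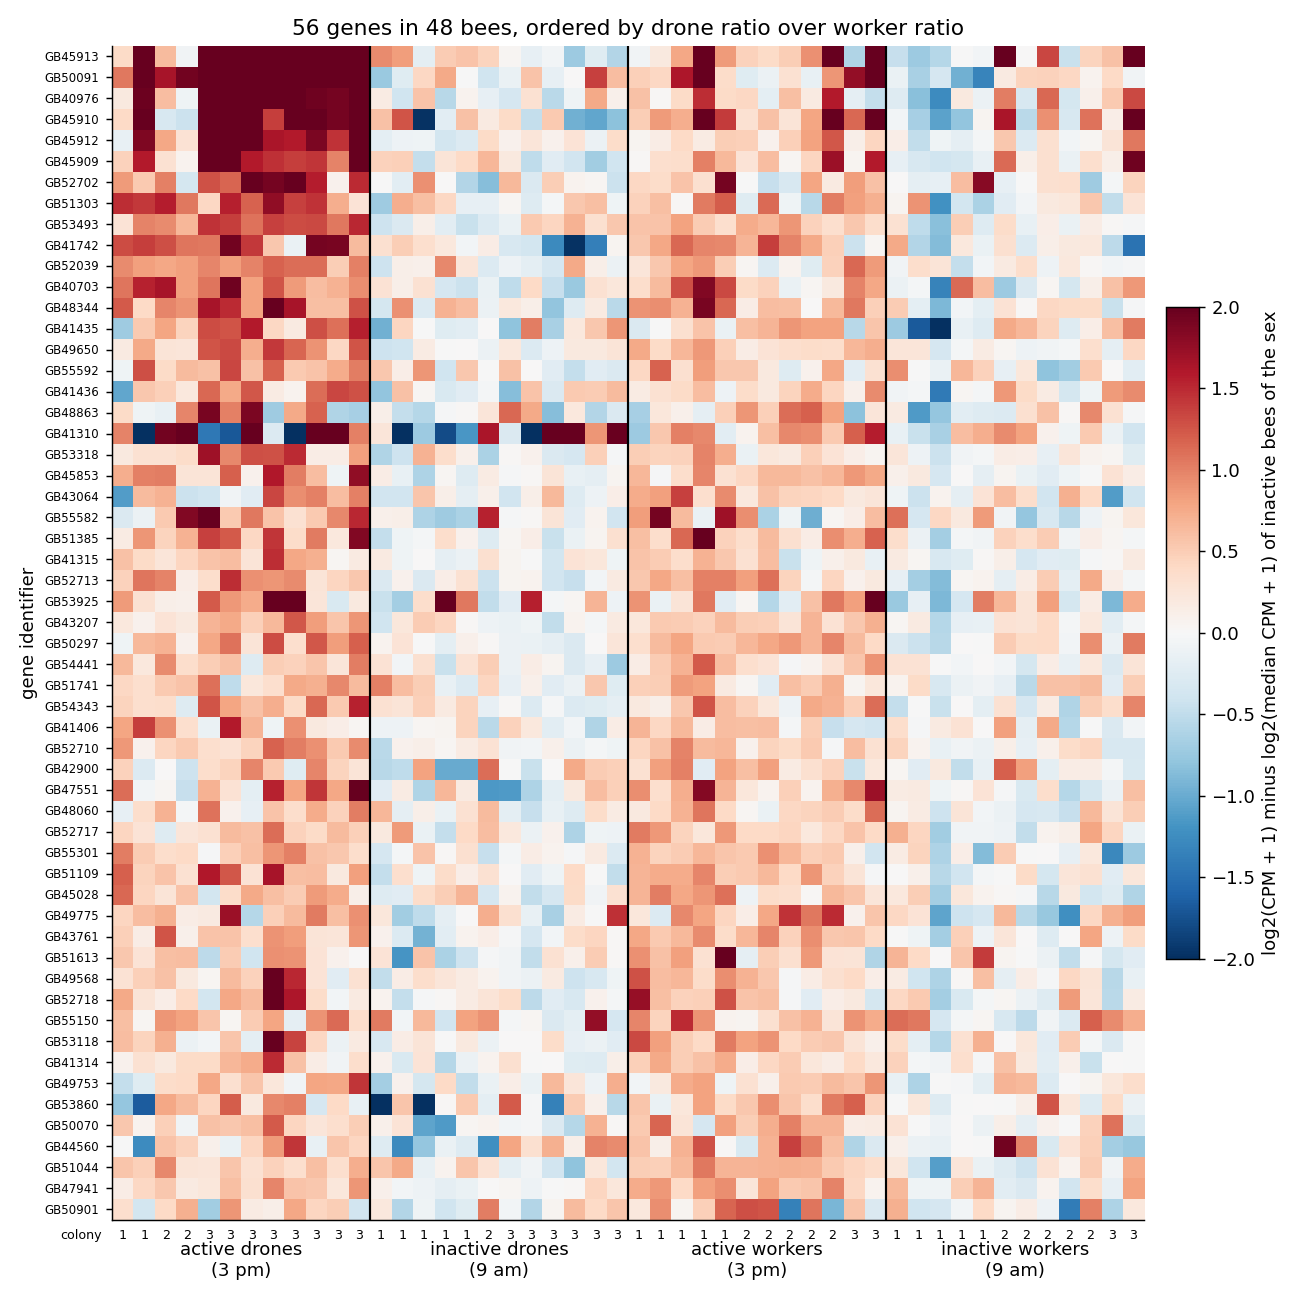
Each of the 56 genes (rows, ordered by drone ratio over worker ratio) in each of the 48 bees (columns, by group and colony), as log2(CPM + 1) minus that of the inactive median of the sex, with colours ending at -2 and 2. The top rows hold the genes with drone ratios up to 9.72 and are dark red in most active drones and paler in most active workers.

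Spread between bees of a group was wider for these genes than in the median of all genes. A choice by ratios of group medians can favour genes that vary between bees, and its share in this spread was not tested. The median SD of log2 CPM (library sizes scaled by TMM, edgeR's normalization) over the 56 genes was 0.54 in active drones, 0.46 in inactive drones, 0.44 in active workers and 0.47 in inactive workers. Over the 8467 genes it was 0.26, 0.33, 0.26 and 0.31 in the same order. The 56 genes took a median of 1.34% of the gene reads of active drones, 0.489% in inactive drones, 0.499% in active workers and 0.365% in inactive workers. The lowest count of any of them in any bee was 8 reads.

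The sex difference averaged over both times was not fixed by the rule and was tested with edgeR. Of the 56 genes 26 were higher in drones, against 24.2% of all 11167 genes tested and 24.2% of the 8467 genes at the floor. Higher in workers were 3, against 21.5% of all genes tested and 25% of those at the floor. These were 46.4% and 5.36% of the 56 genes. The average holds the active groups, in which the drone ratios were often the larger. With only the 9 am groups 21 were higher in drones (17.1% of all genes tested) and 4 in workers (14.8%), and with only the 3 pm groups 29 in drones (18%) and 2 in workers (16.8%). At both times and in the same direction 22 genes were called (22.4% of all genes tested), 20 of them higher in drones (12%). The median log2 difference, drones minus workers, was 0.36 over the 56 genes and 0.01 over the 8467, and at 9 am it was 0.08 and 0.00.

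GB55301 had the lowest adjusted p of the sex difference. It had 45.2, 66.5 and 94.6 CPM in active drones and 33.2, 45.8 and 68.3 CPM in inactive drones. It had 15.0, 28.9 and 38.2 CPM in active workers, against 7.56, 19.8 and 28.5 CPM in inactive workers. The difference was 1.45 ± 0.13 (log2, SE; adjusted p = 3.6e-12, edgeR), and 21 of 24 drones were above all 24 workers. Its ratios between times were 1.45 in drones and 1.46 in workers.

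GB54441 was likewise higher in drones, by 0.95 ± 0.10 (log2, SE; adjusted p = 8.47e-11, edgeR). It had 47.5, 80.8 and 117 CPM in active drones and 33.99, 57.1 and 80.7 CPM in inactive drones. Active workers had 28.4, 39.1 and 69.3 CPM, against 22.6, 29.0 and 35.7 CPM in inactive workers. Of the 24 drones 13 were above all workers. The highest sex difference of the 56 belonged to GB53860, at 1.49 ± 0.21 (log2, SE; adjusted p = 8.23e-08, edgeR), with medians of 1234 CPM in active drones, 925 CPM in inactive drones, 379 CPM in active workers and 260 CPM in inactive workers.

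GB49753 and GB42900 were lower in drones. GB42900 had 4.98, 9.52 and 14.7 CPM in active drones and 2.97, 7.00 and 16.3 CPM in inactive drones. Active workers had 10.1, 18.8 and 29.5 CPM, against 9.79, 14.1 and 33.5 CPM in inactive workers. Its difference was -1.06 ± 0.20 (log2, SE; adjusted p = 2.62e-05, edgeR), and 13 of 24 drones were below all workers. GB49753 differed by -0.76 ± 0.14 (log2, SE; adjusted p = 1.89e-05, edgeR), with medians of 18.8 CPM in active drones, 14.2 CPM in inactive drones, 30.7 CPM in active workers and 21.2 CPM in inactive workers.

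**Figure D4:**
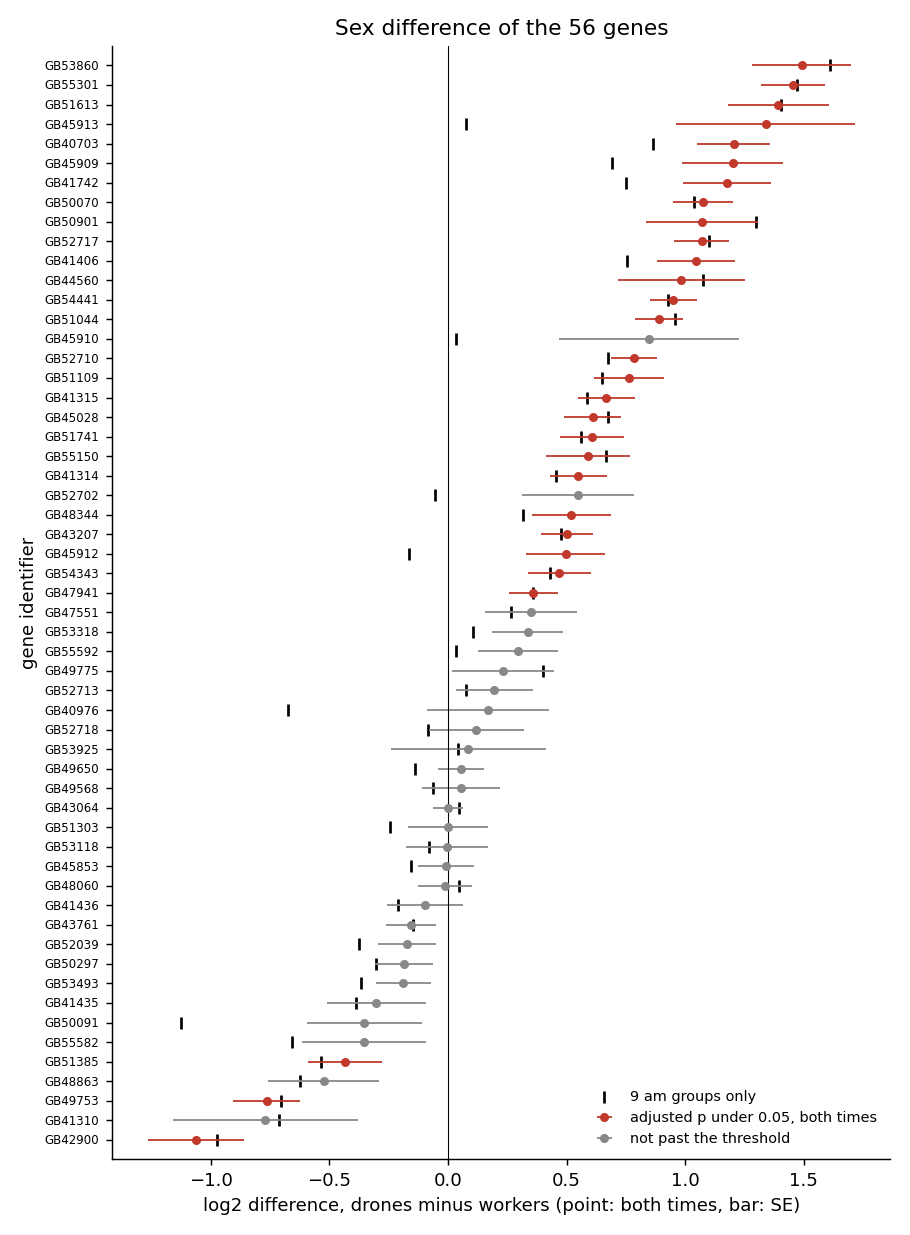
Log2 difference of drones minus workers for each of the 56 genes, averaged over both times (point, with its SE as a bar; red where the adjusted p was under 0.05), with the difference at 9 am alone as a black tick. The red points lie mostly to the right, from GB53860 at 1.49 down, and 3 lie to the left.

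By colony, the median ratio was highest in drones of colony 3 and in workers of colony 1. Ratios were taken again within each colony, from as few as 1 inactive drone (colony 2) and 2 active drones (colonies 1 and 2), as a description. The bees are those that chose the genes, which favours ratios over 1. In drones of colony 1 the median ratio over the 56 genes was 1.39, with 48 genes over 1 (38.7% of all genes at the floor) and 32 at 1.3 or more (7.96%). In drones of colony 2 it was 1.33, with 46 over 1 (43%) and 29 at 1.3 or more (11.1%). In drones of colony 3 it was 1.77, with 54 over 1 (51.8%) and 49 at 1.3 or more (11.6%).

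In workers of colony 1 the median ratio was 1.60, with all 56 genes over 1 (51.5%) and 47 at 1.3 or more (8.53%). In colony 2 it was 1.28, with 50 over 1 (42.9%) and 25 at 1.3 or more (4.51%). In colony 3, with 2 active and 2 inactive workers, it was 1.27, with 40 over 1 (32.6%) and 24 at 1.3 or more (5%). Colony 3, with the highest ratio in drones, also gave 8 of the 12 active drones. Differences of ratio between colonies were not tested.

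The ratio was over 1 in all 6 combinations of sex and colony for 25 of the 56 genes (3.07% of all genes at the floor), and in at least 5 of them for 47 (12%). It was at least 1.3 in all 6 for 4 genes (0.0472%), GB41742, GB47551, GB53493 and GB55301, of which GB53493 is named after its values were seen. No other gene of the 8466 compared reached this. The same bees chose the genes, so the excess over all genes is largely built in and is no replication by colony. GB41742 had drone ratios of 2.07, 2.08 and 4.18 and worker ratios of 2.20, 1.49 and 1.75 in colonies 1, 2 and 3.

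Genes chosen without a colony had smaller median ratios in that colony than the 56 genes had there. The rule was applied to 2 colonies and the ratios were read in the colony left out, an analysis chosen after seeing the data. Without colony 1 the rule found 52 genes, 21 of them among the 56. In the drones of colony 1 their median ratio was 1.21, with 34 over 1 (65.4%, against 38.7% of all genes) and 22 at 1.3 or more (42.3%, against 7.92%). In its workers the median was 1.39, with 49 over 1 (94.2%, against 51.4%) and 29 at 1.3 or more (55.8%, against 8.5%).

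Without colony 2 the rule found 124 genes, 42 of them among the 56. In the drones of colony 2, of which 1 was inactive, the median ratio was 1.19, with 91 over 1 (73.4%, against 43%) and 50 at 1.3 or more (40.3%, against 11.1%). In its workers it was 1.08, with 80 over 1 (64.5%, against 42.9%) and 23 at 1.3 or more (18.5%, against 4.59%). Without colony 3 the rule found 61 genes, 29 of them among the 56. In the drones of colony 3 the median was 1.46, with 51 over 1 (83.6%, against 51.8%) and 34 at 1.3 or more (55.7%, against 11.5%). In its workers it was 1.15, with 39 over 1 (63.9%, against 32.5%) and 23 at 1.3 or more (37.7%, against 4.93%). In all 6 readings the shares were above those of all genes, and the median was nearest to 1 in workers of colony 2. The readings are not independent, since the gene sets were chosen on overlapping bees and both sexes of a colony were read with the same set. The genes of a reading also share its few bees, so their counts are a description.

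The level between colonies, with group in the model, passed the edgeR test for 1 of the 56 genes (2.59% of all genes tested), and 18 had an unadjusted p under 0.05 (14%). GB41435 had an adjusted p of 0.0413 (edgeR). Its medians in colonies 1, 2 and 3 were 13.7, 21.1 and 33.8 CPM in active drones and 11.3, 13.4 and 17.7 CPM in inactive drones. They were 18.1, 32.6 and 19.7 CPM in active workers and 10.6, 25.4 and 33.6 CPM in inactive workers. Colony 1 was lowest in each group. The count was 0 without colony 1 (43 of all 11250 genes tested) and without colony 3 (14 of 11372). With the replicate block it was 0 (2 of 11167), and without inactive worker 3 it was 6 (347 of 11213). GB47551 came next, with an adjusted p of 0.0532 (edgeR).

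Within a group, the median correlation between the 56 genes was positive and small, and it depended on single bees in workers and on the scaling in inactive drones. The correlation was taken for each of the 1540 pairs, as a description. It was the Pearson r over the 12 bees of log2 CPM, with TMM-scaled library sizes and a prior count of 2. Bees of a group differed in colony, pool and depth, and some shared a colony or pool, so they are not independent. The median r was 0.19 in active drones, 0.08 in inactive drones, 0.14 in active workers and 0.24 in inactive workers. Without active worker 4 the median of active workers was 0.0559, and without inactive worker 3 that of inactive workers was 0.134. As log2(CPM + 1) with the sum of gene counts as library size, the members' median was 0.182 in active drones, 0.0128 in inactive drones, 0.0859 in active workers and 0.191 in inactive workers. In the inactive drones of colony 3 alone it was 0.0362. Over all pairs of the 8467 genes, with TMM scaling, it was 0.00, 0.01, 0.00 and -0.01 in the same order. No such median is given for the sum of gene counts, so the members' values on that scale stand without a background. The SE of the members' median, from leaving out each bee in turn, was 0.0325 in active drones, 0.0359 in inactive drones, 0.0809 in active workers and 0.115 in inactive workers. For the 69 genes that were lower by the same fold in active bees of both sexes the median was 0.14, -0.01, 0.10 and 0.23.

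High correlations were not more frequent in every group. Of the 1540 pairs 93 had an r of at least 0.7 in active drones (6.04%, against 2.08% of all pairs) and 69 in active workers (4.48%, against 3.26%). In inactive drones 33 pairs did (2.14%, against 6.57% of all pairs) and in inactive workers 74 (4.81%, against 8.72%). In both inactive groups the share among the 56 genes was below that of all pairs.

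**Figure D5:**
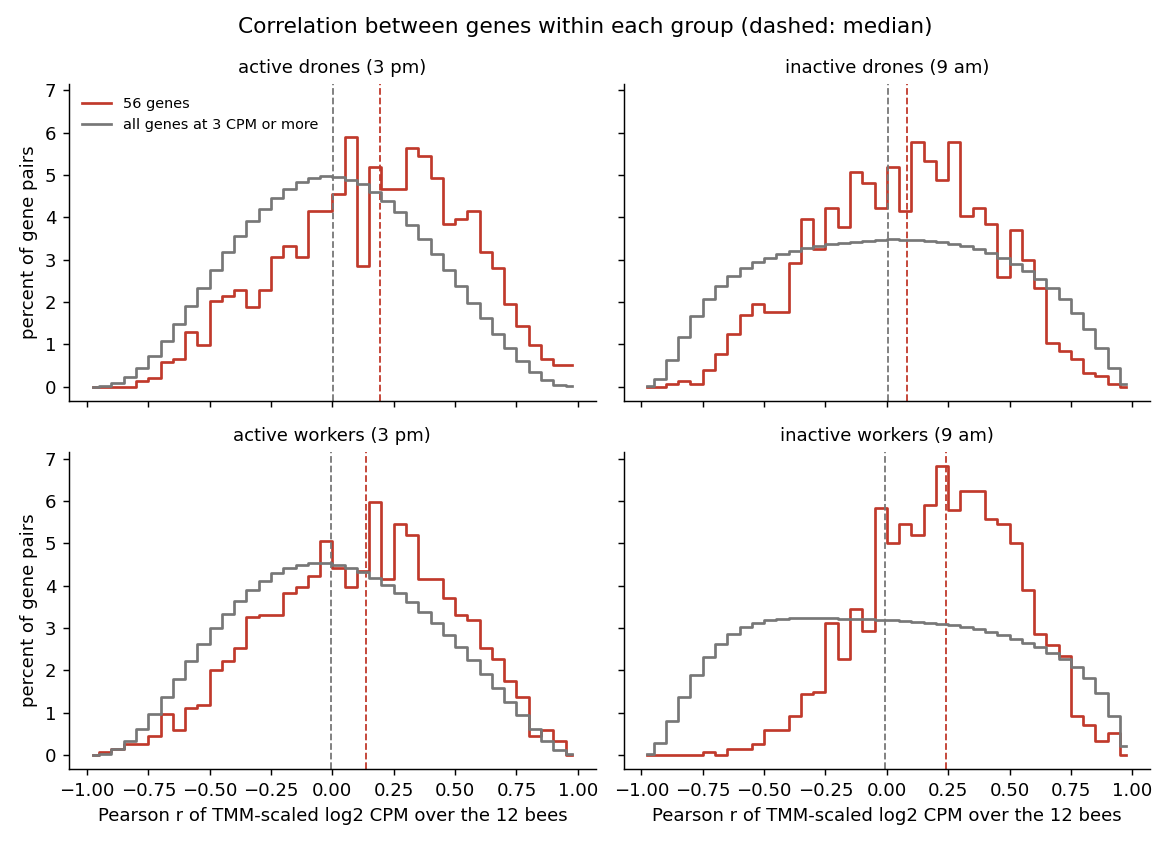
Distribution of Pearson r between pairs of genes over the 12 bees of each group, in percent of pairs, on TMM-scaled log2 CPM, for the 56 genes (red) and all 8467 genes at 3 CPM or more (grey), with dashed lines at the medians. The red medians lie at 0.08 to 0.24 and the grey ones at -0.01 to 0.01, and the grey curves of the inactive groups are the wider.

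GB49650, GB51385 and GB53318 had the highest mean r with the other genes over the 4 groups, 0.30, 0.30 and 0.27. GB49650 had 177, 276 and 417 CPM in active drones and 116, 155 and 185 CPM in inactive drones. Active workers had 159, 194 and 265 CPM, against 114, 144 and 192 CPM in inactive workers. Its mean r was positive in each group, at 0.39, 0.24, 0.21 and 0.38 in active drones, inactive drones, active workers and inactive workers. GB55150, GB55582 and GB50070 had the lowest mean r, at -0.04, -0.02 and -0.02.

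Of the 1540 pairs 3 had an r of at least 0.7 in all 4 groups, and they are named after their values were seen. GB49568 and GB53118 correlated at 0.93 in active drones, 0.88 in inactive drones, 0.84 in active workers and 0.91 in inactive workers. The other two pairs, GB45909 with GB45913 and GB45909 with GB45910, came from genes with close identifiers. Close identifiers do not establish that genes are neighbours. Entries with several alignments, a mean of 2.68%, were kept in a summary row outside the genes. Whether these genes are near-identical, and lost or gained reads by it, was not tested, so their levels are uncertain.

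GB45909, GB45910, GB45912 and GB45913, were chosen as a block after their values were seen. They held a median of 36.5% of the reads of the 56 genes in active drones, 25.4% in inactive drones, 21.7% in active workers and 21.5% in inactive workers. They took a median of 0.489% of the gene reads in active drones, 0.129% in inactive drones, 0.106% in active workers and 0.0753% in inactive workers. GB45909 had 709, 1830.3 and 4575 CPM in active drones and 418, 674 and 1068 CPM in inactive drones. Active workers had 327, 424 and 1052 CPM, against 245, 322 and 1248 CPM in inactive workers. The identifier between them, GB45911, was not among the 56, with ratios of 1.08 in drones and 1.06 in workers.

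The mean log2 level of the 4 genes, relative to inactive bees of the sex, was 0.28, 0.35 and -0.03 in active drones 1, 3 and 4 and 1.81 to 4.03 in the other 9. Active drones 3 and 4 were both of the active drones from colony 2, where the drone ratios of GB45909, GB45910, GB45912 and GB45913 were 0.723, 0.676, 1.13 and 0.919, against a single inactive drone. Some workers of both times stood high as well, at 2.14 in active worker 10 and 2.22 in inactive worker 12. The r between GB45909, GB45910 and GB45913 had a median of 0.96 in active drones, 0.71 in inactive drones, 0.92 in active workers and 0.94 in inactive workers. GB45912 followed them in active drones (r of 0.95 to 0.97) and inactive workers (0.88 to 0.92), less in active workers (0.39 to 0.64), and ran against them in inactive drones (-0.66 to -0.23). Among the other 52 genes the median r was 0.18, 0.10, 0.14 and 0.24 in active drones, inactive drones, active workers and inactive workers.

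The threshold cut through many genes of like values. The members just inside were GB53318, with a worker ratio of 1.3001 and a drone ratio of 1.54, and GB40976, with a worker ratio of 1.3026. Just outside were GB52493, with a worker ratio of 1.2998 and a drone ratio of 1.74, and GB48007, with 1.2956 and 1.73. In 16 of the 56 genes the smaller ratio lay within 0.05 above the threshold, and in 49 other genes within 0.05 below it. With 1 bee left out at a time, 36 of the 56 genes met the rule in all 48 cases.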

How the data were processed

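The authors deposited raw counts, 1 whole number per gene and bee, not normalized. Per the labels' protocols, heads were frozen, mushroom bodies dissected, RNA enriched for poly(A) and directional libraries made. The submitters' processing notes name, without roles, HTSeq 0.5.4, TopHat2 2.0.10, edgeR 3.4.2 (the authors' version), Trimmomatic 0.30, CASAVA 1.8.2 and SAMtools. How reads were counted, and on which strand, is not given in the sources used here, so overlapping or near-identical genes are uncertain. Summary rows (outside genes 28.0%, ambiguous 0.909%, several alignments 2.68% of entries) were left out.

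CPM levels and ratios used the sum of gene counts as library size. A single model of the 4 groups with colony as covariate was fitted to all 48 bees with edgeR 4.0.16 (R 4.3.3) quasi-likelihood tests, filterByExpr and TMM, with two-sided p-values adjusted by Benjamini-Hochberg over 11167 genes and a threshold of 0.05. The sex, colony and worker tests were also run on simulated counts that used the spread estimated in that model. At a log2 change of 0.5 they recovered 68%, 70% and 50% of the changed genes. These shares are for genes at large and not for the 56 genes, whose median spread between bees was wider in every group. Recovery at the spread of the 56 genes was not tested. The drone contrast and the difference in response between the sexes were not simulated. Correlations used log2 CPM on TMM-scaled library sizes with a prior count of 2. The smallest chi-square per degree of freedom was 12.8 over all 1128 pairs of bees, so no 2 libraries agreed within sampling noise. With TMM and with size factors, the median of all genes shifted by under 0.1 on the log2 scale in the drone, worker and sex contrasts, which were the ones looked at.

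The members and lists were chosen with earlier results of these data known. The genes named were the 8 with the largest smaller ratio, the 4 of highest mean CPM, 3 at each end of drone over worker ratio, 2 per direction of sex, 2 for colony, 3 at each end of mean r, and 2 on each side of the threshold. Pathway and marker lists by symbol could not be matched to any identifier and were not used. Alternatives covered normalization, filter, DESeq2 1.42.0, replicate block, pool, colony, thresholds and bees left out.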

Additional observations from a re-analysis of the deposited data

Results flagged for a closer look

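GB45912 stood out because the fit called its change with activity as different in drones and workers. Taken as workers minus drones, that difference was -1.319 ± 0.29 (log2, SE). The contrasts behind it are those that chose the 56 genes, so the value is a description and supports nothing. In drones 10 of 12 active bees were above every inactive one, and in workers 1 of 12. Without colony 3, which held 8 of the 12 active drones, and with the replicate block, 0 of the 56 genes were called. Over all genes tested those fits called 0 and 12.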

How the results depend on the processing

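The number of genes depended most on the thresholds. It was 162 with a fold of 1.2, 15 with 1.5, 89 with group means in place of medians (39 of the 56 among them), 108 with a floor of 1 CPM and 35 with a floor of 10 CPM. It was 124 without colony 2, 52 without colony 1 and 61 without colony 3. TMM-scaled sizes gave 77 (51 of the 56 among them), size factors 75 (47) and counts thinned to 6.69 M reads 55 (41), and leaving out each bee in turn gave 53 to 68. Without colonies 1, 2 and 3, 21, 42 and 29 of the 56 were among them.

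The sex difference kept its count within 1.5 times of 29 under all 13 alternatives run, at 24 to 35. Numbers in brackets below are the genes called in either direction over all genes tested. The colony count of 1 (289) was 6 with DESeq2 (456), 3 with pool terms (270) and 6 without inactive worker 3 (347). It was 0 without colony 1 (43) and 0 without colony 3 (14). The worker count of 16 (258) was 7 with pool terms (121), 0 without colony 1 (12), 8 without colony 2 (64) and 9 without colony 3 (140). It was 5 without inactive worker 3 (89) and 5 without active worker 4 (104). The drone count of 39 (441) was 0 without colony 3 (1). The count of responses differing between the sexes, 1 (29), was 3 with DESeq2 (64), 2 with pool terms (21) and 3 with no colony term (43). It was 0 without colony 3 (0) and 2 without active worker 4 (24). The cause of these moves was not tested, and fits without a colony hold fewer bees. Fits without a single bee were added after seeing the data.

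The median correlation moved in active drones to 0.134 after taking out colony and 0.156 in colony 3 alone, and in inactive drones to 0.0128 as log2(CPM + 1) with the sum of gene counts as library size and 0.0362 in colony 3 alone. Leaving out each bee in turn gave 0.173 to 0.208 in active drones, 0.0584 to 0.0946 in inactive drones, 0.0559 to 0.155 in active workers and 0.134 to 0.272 in inactive workers. Each omission moved it by less than its SE, which was computed from the same omissions, so this is no sign of stability. The remaining correlation settings also moved it by less than its SE.

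Whether replicate numbers paired the bees was not settled. Within each group the numbers run in the order of the colonies, so number and colony overlap. Of the 72 same-numbered pairs 31 had a correlation of deviations over 0.1, with a range of -0.478 to 0.716. Of the 48 bees 11 correlated best with their own number, and no level expected without pairing was worked out. With the replicate block the colony count was 0 (2 of all 11167 genes tested). The count of responses differing between the sexes was 0 (12 of 11167), and the other counts stayed within 1.5 times.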
